A study of Drosophila melanogaster with 2 samples.

Results

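The genes described here encode the cytosolic translation factors of Drosophila melanogaster. They are the 54 protein-coding genes, of 13945 on the 6 chromosome arms, whose symbol begins with eIF (initiation), eEF (elongation) or eRF (release) in the Ensembl models of dm6. Binding of Pipsqueak (Psq) near their transcription start sites (TSSs) was read from chromatin immunoprecipitation sequencing of whole embryos. The embryos were 0-24 h old, of mixed sex, and came from a transgenic line that stably expresses Psq with GFP fused to its C-terminus from an insertion targeting psq. An anti-GFP antibody was used on sonicated chromatin from 2 biological replicates, numbered 3 and 4, which form the single group. No untagged line or second condition entered, so each value describes where peaks lay and how strong they were, with no contrast between conditions. Whole embryos mix all cell types, so a weak peak in many cells and a strong peak in few cells cannot be told apart.

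Psq is a BTB-domain protein whose Psq domain binds DNA, and it is known for recognising GAGA-rich sequence. Translation factors act in order on the ribosome. Initiation factors bring the initiator tRNA, the mRNA cap and the ribosomal subunits together, elongation factors deliver aminoacyl-tRNAs and move the ribosome, and release factors end synthesis at stop codons. In Drosophila, promoters of such widely used genes are known to carry the DNA replication-related element (DRE), bound by DREF, or a TCT initiator.

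A gene was called bound when the summit of at least 1 of the 2999 peaks that passed the irreproducible discovery rate (IDR) threshold lay within 1000 bp of any of its TSSs. The IDR step is meant to keep peaks whose ranks are reproducible between replicates, but a call is not a check of each peak. Among the IDR peaks, 75.7% overlapped a peak among the strongest 2999 of each replicate. The peaks of eIF2Bbeta and eEF5 ranked 32 and 1800 by score, both in the IDR list and among all peaks of the combined replicates. Of the 54 translation factor genes, 14 were bound (25.9%), whereas 16.2% of all protein-coding genes were bound by the same rule. The score of a peak is the caller's own statistic as deposited, has no unit and is compared within a list. Among the bound translation factor genes the best score had a median of 153 and ran from 78.8 to 684. Over all bound genes the median was 116, with a range of 72.5 to 2011.

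The DNA under the summits is shown for 6 of the 14 bound genes. The eIF2Bbeta, eRF3 and eIF4EHP genes had the 3 highest scores, and eEF1gamma followed at rank 7. The windows of eIF6, eEF1alpha1 and eIF3c, which scored between eIF4EHP and eEF1gamma, are not printed. The eIF1 and eIF3a windows were added after their values were seen, because each held a DRE close to the summit. Each sequence reaches up to 100 bp to either side of the summit, stops where an annotated exon begins, and is written 5′ to 3′ on the strand of the gene. It was read from the RefSeq assembly of Release 6 (dm6). Capitals mark matches to the DRE (TATCGATA) or to an E-box (CAGCTG). The 6 sequences hold no GAGAG because of which windows are printed: the unprinted windows of eEF1alpha1 and eIF3c held it, and that of eIF6 held a DRE.
The eIF2Bbeta window is chrX:2703853-2703979 on the plus strand, with its summit at base 27.
eIF2Bbeta: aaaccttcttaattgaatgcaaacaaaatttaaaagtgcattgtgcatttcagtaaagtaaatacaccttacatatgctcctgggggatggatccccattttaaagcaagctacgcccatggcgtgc
The eRF3 window is chr2L:12436382-12436582 on the plus strand, with its summit at base 101 and 1 E-box.
eRF3: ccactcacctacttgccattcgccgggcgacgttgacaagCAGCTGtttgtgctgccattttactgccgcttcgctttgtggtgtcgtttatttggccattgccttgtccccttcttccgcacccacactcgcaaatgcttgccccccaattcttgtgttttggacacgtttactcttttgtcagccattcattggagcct
The eIF4EHP window is chr3R:24109095-24109295 on the minus strand, with its summit at base 101 in AT-rich DNA.
eIF4EHP: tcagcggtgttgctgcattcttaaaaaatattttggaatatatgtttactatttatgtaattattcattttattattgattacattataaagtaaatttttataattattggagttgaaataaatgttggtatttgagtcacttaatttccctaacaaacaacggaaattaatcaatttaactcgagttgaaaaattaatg
The eEF1gamma window is chr3R:29220043-29220171 on the plus strand, with its summit at base 101 and a DRE starting at base 89.
eEF1gamma: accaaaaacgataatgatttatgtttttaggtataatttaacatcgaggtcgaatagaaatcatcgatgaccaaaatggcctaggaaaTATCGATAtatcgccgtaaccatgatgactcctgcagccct
The eIF1 window is chr3L:3222961-3223142 on the plus strand, with its summit at base 82 and a DRE starting at base 85.
eIF1: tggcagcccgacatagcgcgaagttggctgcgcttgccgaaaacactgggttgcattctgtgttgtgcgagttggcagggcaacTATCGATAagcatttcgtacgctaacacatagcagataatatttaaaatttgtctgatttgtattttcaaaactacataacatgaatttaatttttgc
The eIF3a window is chr3R:4433896-4433964 on the minus strand, with its summit at base 26 and a DRE starting at base 32.
eIF3a: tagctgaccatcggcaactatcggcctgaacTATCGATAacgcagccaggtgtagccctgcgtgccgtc

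Of the 8 genes for eIF1, eIF1A, the eIF2 group and eIF5, which act in start-codon selection and initiator tRNA delivery, 1 was bound, a share near the 16.2% of all protein-coding genes. That gene, eIF1, which guards start-codon fidelity, had a score of 140.5, and its peak scored 72.1 in replicate 3 and 66.7 in replicate 4. Its summit lay 299 bp upstream of the eIF1 TSS and 82 bp from that of RpL28, a ribosomal protein gene, and a second IDR summit, of score 85.1, lay 100 bp upstream of eIF1. The eIF1A gene, for the partner of eIF1 on the small subunit, had only a pooled-list summit of score 41.8. The pooled list holds 30000 relaxed peaks from the replicates combined, including background by design, and it gives values for genes below the IDR threshold. None of the 5 eIF2 genes was bound. Of the 3 subunits of eIF2 itself, the GTPase that carries initiator tRNA, eIF2alpha reached 38.8 and eIF2beta 27.6 in the pooled list, and eIF2gamma had no pooled summit. The separate factors eIF2A and eIF2D reached 66.8 and 31.4. The GTPase-activating factor eIF5 reached 37.4.

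The exchange factor that reloads eIF2 with GTP, eIF2B, showed the widest range within a complex. The gene for its beta subunit, eIF2Bbeta, had the highest score of all 54 genes at 684 and ranked 32 in the pooled list. Its peak scored 313 in replicate 3 and 371 in replicate 4. That summit lay 692 bp upstream of the eIF2Bbeta TSS and 27 bp from the TSS of Ugalt, a UDP-galactose transporter gene, so the call rests on the width of the window and ended at 500 bp. The other 4 eIF2B genes were not bound. With 1 of 5 genes bound, the eIF2B share was near the 16.2% of all protein-coding genes. Pooled scores of the unbound genes were 31.4 for eIF2Bdelta, 25.4 for eIF2Bgamma and 21.3 for eIF2Bepsilon. There was no pooled summit for eIF2Balpha.

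Of the 16 genes for eIF3, the scaffold that assembles the small-subunit complex, 3 were bound. This share of 18.75% was near the 16.2% of all protein-coding genes. The core subunit gene eIF3c scored 193, with its summit 31 bp upstream of the TSS and scores of 96.2 and 95.7 in replicates 3 and 4. The eIF3h gene scored 119, with the summit 48 bp downstream of an internal TSS and replicate scores of 56.1 and 61.2. The lowest-scoring bound gene of all was that of the core subunit eIF3a, at 78.8, with 42.3 in replicate 3 and 37.2 in replicate 4. Its summit lay between its own TSS, at 44 bp, and that of CG1074, at 26 bp. Another 6 eIF3 genes had pooled scores between 23.4 (eIF3i) and 58.7 (eIF3m), with eIF3b, eIF3d1, eIF3f1 and eIF3f2 between them. The remaining 7 had no pooled summit within 1000 bp: eIF3d2, eIF3e, eIF3g1, eIF3g2, eIF3j, eIF3k and eIF3l.

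Among the 13 eIF4 genes, which encode cap-binding, scaffold and helicase functions, eIF4EHP alone was bound. That share was 7.69%, beside 16.2% of all protein-coding genes. eIF4EHP is a cap-binding protein that represses translation of selected mRNAs in the embryo. Its peak scored 370.1 in the IDR list, 178 in replicate 3 and 188 in replicate 4. The summit lay 235 bp upstream of eIF4EHP and 141 bp from the TSS of CG18428. A further 5 IDR summits lay inside the long eIF4EHP gene, between 3375 and 15866 bp from its TSS. The strongest of these, at 559, lay 380 bp from the TSS of Syx1A, a syntaxin gene, and they were not counted for eIF4EHP. The helicase gene eIF4A and the major cap-binding gene eIF4E1 fell just below the IDR threshold, at 67.3 and 65.4. The scaffold genes eIF4G1 and eIF4G2 reached 38.4 and 54.0, eIF4H1 reached 33.2 and eIF4E6 20.8. There was no pooled summit at eIF4B, eIF4E3, eIF4E4, eIF4E5, eIF4E7 or eIF4H2.

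Both genes for factors that act on the large subunit were bound, beside 16.2% of all protein-coding genes. eIF6, which keeps the subunits apart, scored 360.3, with 177 in replicate 3 and 179 in replicate 4 and a summit 101 bp upstream. Among genes of all types, the TSS nearest to that summit was that of asRNA:CR45928, at 72 bp. eIF5B, which joins the subunits, scored 121, with 64.1 and 59.2 in the replicates. Its summit lay inside the gene, 153 bp upstream of an internal TSS. The eIF5B gene also held 2 intronic IDR summits, of scores 113 and 83.0, which lay 21937 and 27769 bp from that TSS.

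Elongation and release genes were bound in 6 of 10 cases, beside 16.2% of all protein-coding genes. By group these were 2 of 5 eEF1 genes, 2 of 3 for eEF2, eEF5 and eEFSec, and 2 of 2 eRF genes. eEF1alpha1, which delivers aminoacyl-tRNA, scored 304, with 132 in replicate 3 and 175 in replicate 4. Its summit lay 146 bp upstream and 10 bp from the TSS of ERp60, which encodes a protein disulfide isomerase. The gene for eEF1gamma, a scaffold subunit of its exchange factor, scored 166 at 29 bp upstream, with 73.4 and 95.1 in the replicates. The exchange subunit genes eEF1beta and eEF1delta reached 43.8 and 18.4 in the pooled list.

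The translocase gene eEF2 scored 102, with its summit 18 bp downstream of the TSS and replicate scores of 48.4 and 51.4. The gene for eEF5, which relieves stalled ribosomes, scored 98.1 at 35 bp upstream, with 41.9 in replicate 3 and 59.4 in replicate 4. No pooled summit was found at eEFSec, whose product delivers selenocysteine tRNA. Release factor genes were both bound. eRF3, the GTPase, scored 585, ranked 45 in the pooled list, and had 256 and 331 in replicates 3 and 4. That summit lay inside the gene, 208 bp upstream of an internal TSS, and a second IDR summit of score 93.3 lay 320 bp upstream of another eRF3 TSS. The stop-codon reader gene eRF1 scored 91.3, with 54.2 in replicate 3 and 34.4 in replicate 4.

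**Figure D1:**
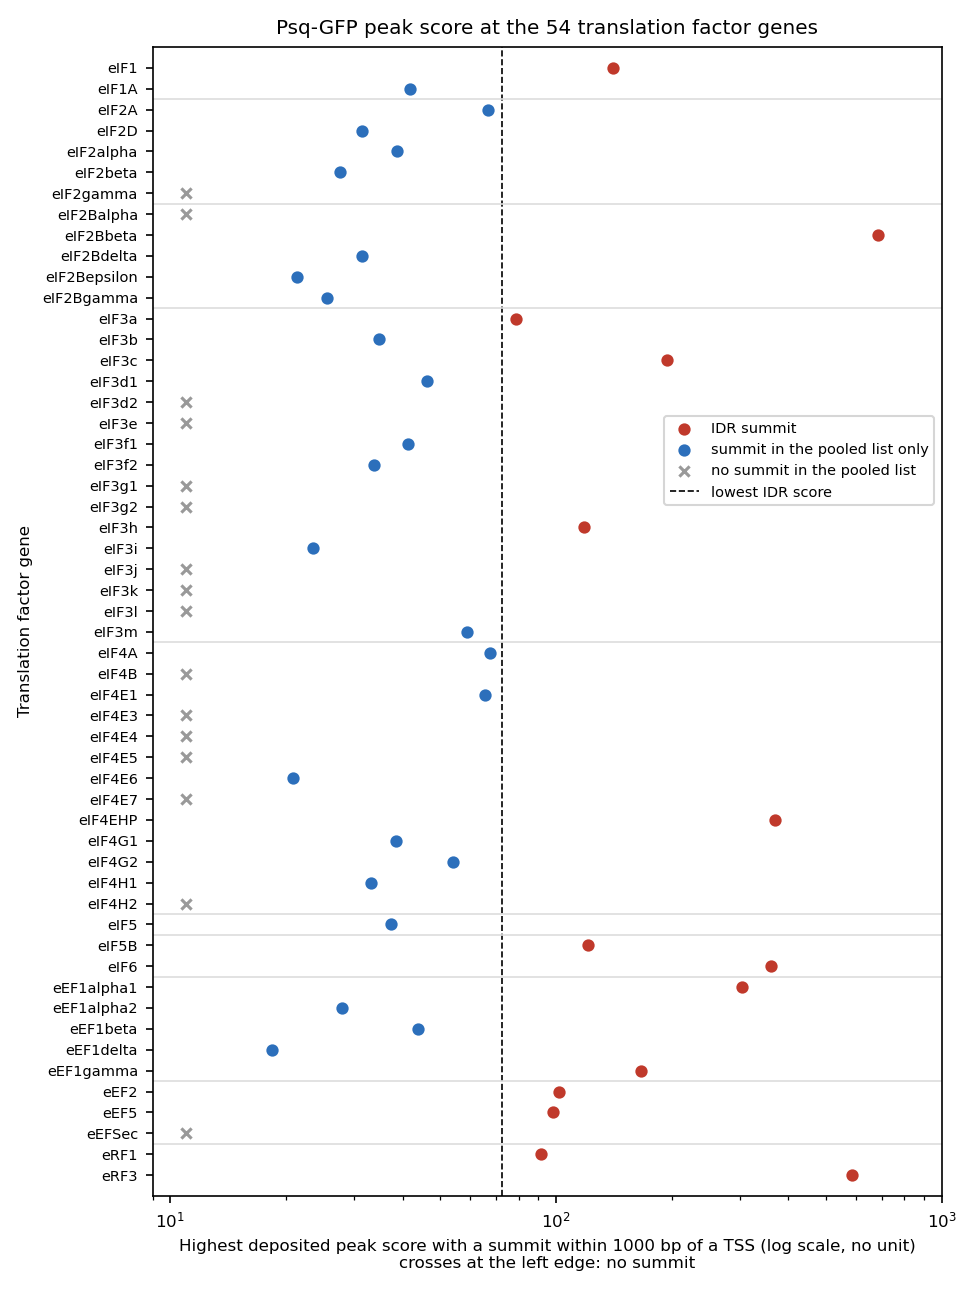
Highest deposited peak score (x axis, log scale, no unit) with a summit within 1000 bp of a TSS for each of the 54 translation factor genes (y axis), grouped by factor. Red points are the 14 bound genes, blue points are the 24 genes with only a pooled-list summit below the lowest IDR score of 72.5 (dashed line), and grey crosses at the left edge are the 16 genes with no pooled summit.

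Genes of 1 paralogue set differed in score. eEF1alpha1 had a score of 304, at a summit 10 bp from the TSS of ERp60, whereas its paralogue eEF1alpha2 had 27.8. In the eIF3 sets, eIF3d1 had 46.2 and eIF3d2 no summit, eIF3f1 had 41.4 and eIF3f2 33.8, and neither eIF3g1 nor eIF3g2 had one. The eIF3f2 summit lay 926 bp upstream of its TSS, and no replicate 3 peak overlapped it. Of the numbered eIF4E genes, the highest was eIF4E1 at 65.4 and 4 of 6 had no pooled summit. These are single scores from the combined replicates, and differences between paralogues were not tested.

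Below the IDR threshold, 24 translation factor genes (44.4%) had a pooled summit only, against 43.6% of all protein-coding genes. Their median score of 36.1 stood beside 32.8 for all such genes. A pooled summit of any score was present at 38 of the 54 genes (70.4%), and at 59.8% of all protein-coding genes. The 3 bound genes nearest the threshold were eIF3a at 78.8, eRF1 at 91.3 and eEF5 at 98.1. On the other side lay eIF4A at 67.3, eIF2A at 66.8 and eIF4E1 at 65.4. Their summits lay inside the genes, 98, 48 and 109 bp upstream of an internal TSS. In the replicates these scored 36.1 and 32.8 for eIF4A, 32.3 and 34.7 for eIF2A, and 26.3 and 38.9 for eIF4E1, each with replicate 3 first. The replicate 3 values of eIF4A and eIF2A lay below those of eRF1 and eIF3a, while in replicate 4 eIF2A and eIF4E1 exceeded eRF1. The order around the threshold therefore differed between replicates.

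Each replicate's own strongest 2999 peaks were also assigned to genes. In replicate 3 they reached 15 translation factor genes (27.8%) against 15.8% of all genes, and in replicate 4 they reached 12 (22.2%) against 16% of all genes. All 14 IDR-bound genes were overlapped by a strongest peak of replicate 3 and 12 by one of replicate 4, the exceptions being eIF3a at rank 3449 and eRF1 at rank 3954. Of the 16 IDR summits at these genes, 14 had a peak overlapped by the strongest peaks of both replicates, beside 75.7% of all IDR peaks. An overlap of 1 bp was enough, so neighbouring IDR peaks could share a replicate peak. The ratio of the replicate 4 to the replicate 3 score ran from 0.634 (eRF1) to 1.42 (eEF5), with a median of 1.06. Over all IDR peaks the median ratio was 1.14. Summits in the replicate lists lay a median of 20 bp (replicate 3) and 2.5 bp (replicate 4) from the IDR summit. The farthest shift was 120 bp, for eIF3h in replicate 3. With 2 replicates and only peak lists, no test between genes or replicates was made, and the read depth is unknown.

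**Figure D2:**
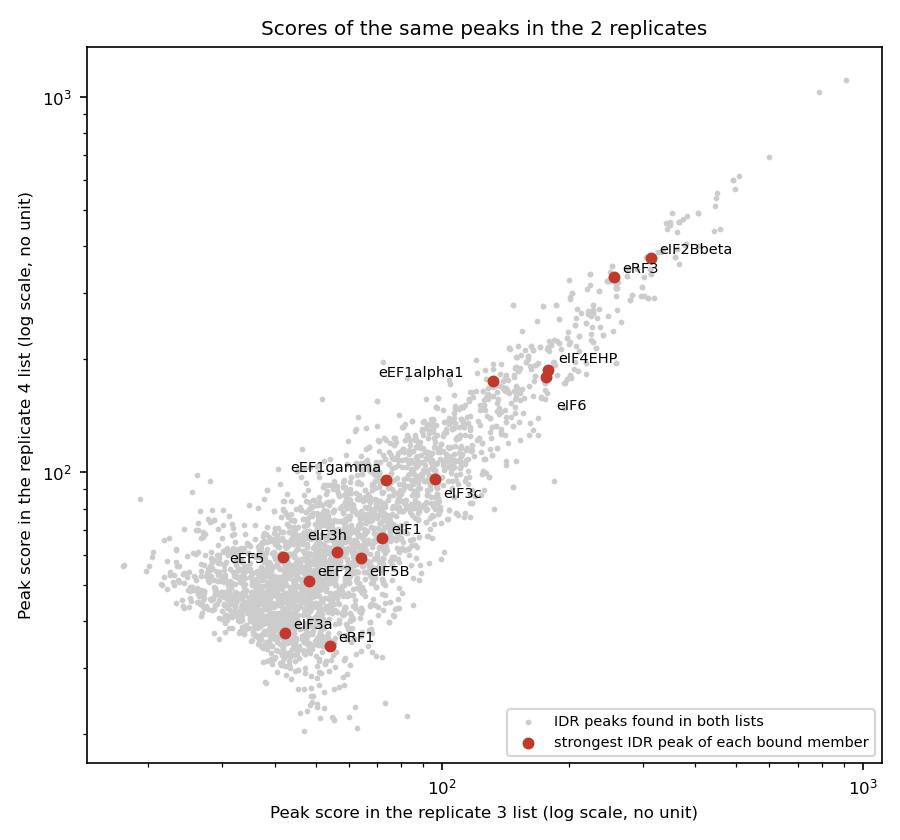
Peak score in the replicate 3 list (x axis) against that in the replicate 4 list (y axis), both log scale and without unit, for the IDR peaks found in both lists (grey) and the strongest peak of each of the 14 bound translation factor genes (red, named). eIF2Bbeta and eRF3 lie highest in both lists, and eRF1 and eIF3a have the lowest replicate 4 scores of the named genes.

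Summits at the bound translation factor genes lay close to the start sites. Of the 14, 6 were within 100 bp (42.9%, against 27.7% of all bound genes), 12 within 250 bp (85.7% against 65.9%) and 13 within 500 bp (92.9% against 83.6%). The median distance was 122 bp, and 166 bp over all bound genes. Measured to the closest TSS of the gene, upstream summits made up 12 of the 14 (85.7%), near the 80.3% of all bound genes. The eIF3h and eEF2 genes had theirs downstream. Among the 12, the summits of eIF5B and eRF3 lay inside the gene, upstream of an internal TSS.

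**Figure D3:**
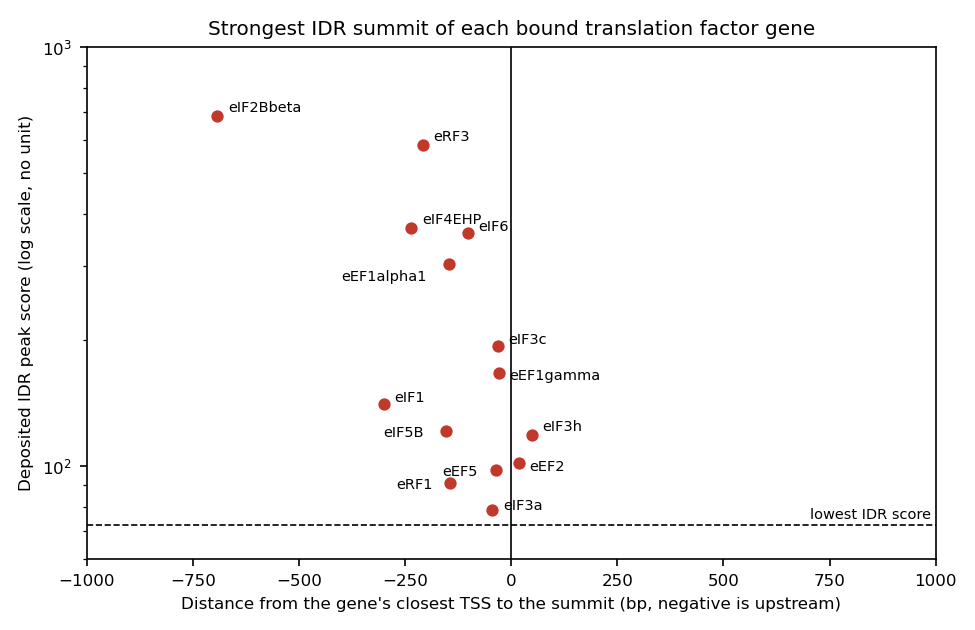
Distance from the gene's closest TSS to its strongest IDR summit (x axis, bp, negative is upstream) against the deposited IDR score (y axis, log scale, no unit) for the 14 bound translation factor genes. The summit of eIF2Bbeta lies farthest away, at -692 bp, and 12 of the 14 are within 250 bp of the TSS.

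Many of these summits also lay near the TSS of another gene. At 11 of the 14 bound genes (78.6%) the same summit was also within 1000 bp of the TSS of another protein-coding gene, beside 62.5% of all bound genes. The neighbours included ERp60, RpL28, Ugalt, CG1074 and CG18428, named above, Rbbp5 at eRF1, a histone methyltransferase complex subunit gene, and armi at eIF5B, which encodes an RNA helicase. When each IDR summit was given only to the protein-coding gene with the nearest TSS, 10 translation factor genes kept a summit (18.5%, against 11.5% of all genes). eEF1alpha1, eIF2Bbeta, eIF3a and eIF4EHP lost theirs, which includes 3 of the 5 highest scores.

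The layout of start sites moved with these counts. Of the 54 genes, 28 (51.9%) had a divergent protein-coding TSS within 1000 bp, compared with 36.2% of all genes. Among those 28, 11 were bound (39.3%), and among all genes with such a neighbour 28.9% were bound. Among the 26 translation factor genes without one, 3 were bound (11.5%), beside 9.05% of all genes without one. Genes with several annotated TSSs were bound in 9 of 22 cases (40.9%) and those with 1 TSS in 5 of 32 (15.6%), against 28.0% and 12.0% of all genes. Divergent neighbours and several TSSs were both more frequent among translation factor genes than among all genes, and their part in the overall share was not tested.

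**Figure D4:**
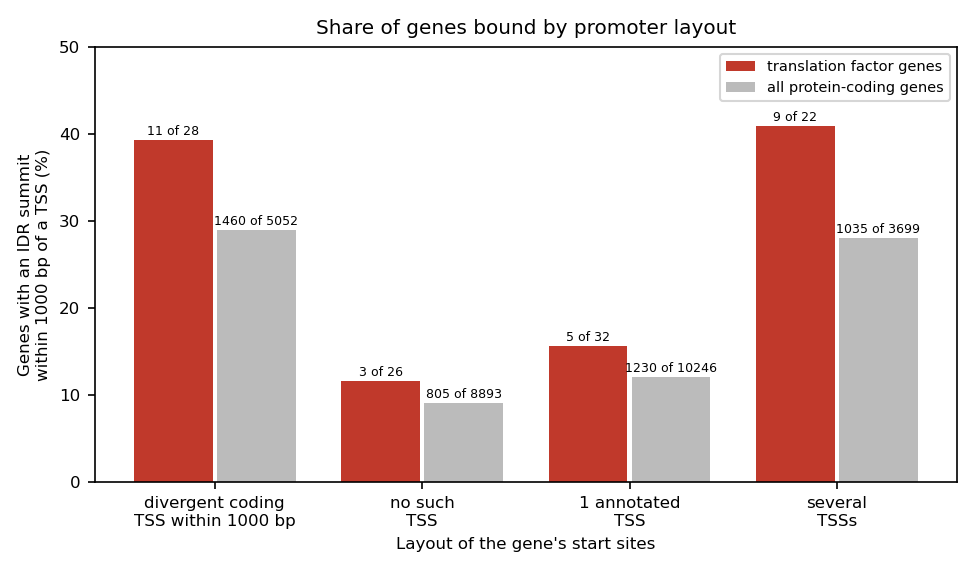
Share of bound genes (y axis, percent; window of 1000 bp) by layout of their start sites (x axis), for translation factor genes (red) and all protein-coding genes (grey), with the count of bound genes over each bar. In both sets the bars are taller for genes with a divergent coding TSS (39.3% and 28.9%) than for those without (11.5% and 9.05%).

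Exact motif matches on both strands were counted within 100 bp of each of the 16 IDR summits at these genes. GAGAG was found at 2 (12.5%), compared with 33.1% of all IDR summits and 29.2% of the 1672 IDR summits within 500 bp of a TSS. These were eIF3c, with 2 matches, the nearer 2 bp from the summit, and eEF1alpha1, with 1 at 49 bp. The longer GAGAGAG, whose matches also count for GAGAG, was found at 0 of the 16, beside 9.64% of all. The DRE (TATCGATA) was found at 4 (25.0%), beside 3.10% of all IDR summits and 5.26% of those near a TSS. In the sequences printed above its centre lay 9 bp from the summit at eEF1gamma, 6 bp at eIF1 and 10 bp at eIF3a. At eIF6, the remaining gene, it was 94 bp away. TATAAA was found at 7 (43.8%, against 29.5% of all). The E-box CAGCTG was found at 1, eRF3 (6.25%, against 10.4% of all). GGTCACAC, the core of promoter motif 1, was found at 0, beside 2.17% of all. Windows at bound translation factor genes had a median GC content of 42.8%, between 22.9% at eIF4EHP and 51.7% at eRF3, and those of all IDR summits had 37.8%. A match is a description of the letters in the window, and 16 summits are few.

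**Figure D5:**
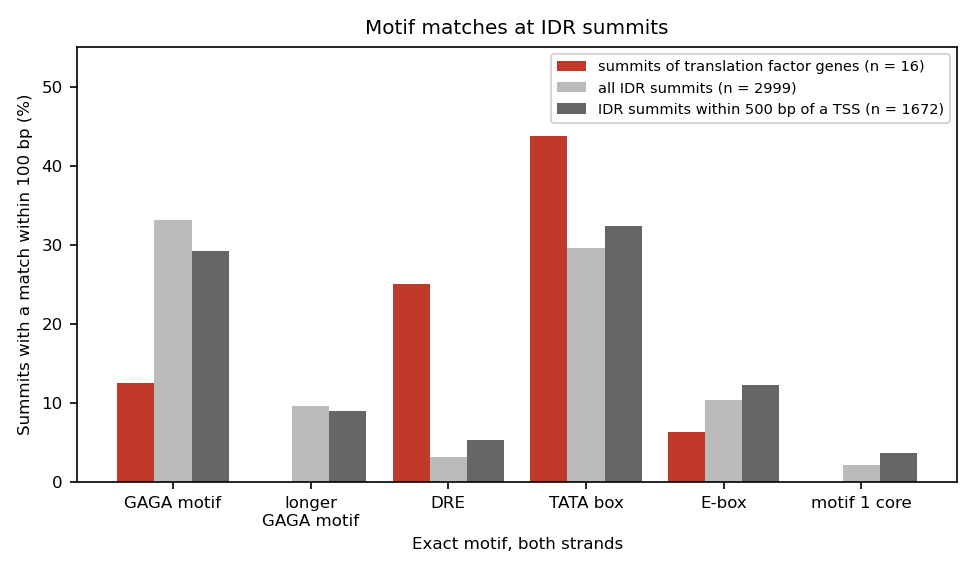
Share of IDR summits with an exact motif match within 100 bp (y axis, percent) for 6 motifs (x axis), at the 16 summits of translation factor genes (red), all 2999 IDR summits (light grey) and the 1672 IDR summits within 500 bp of a TSS (dark grey). The DRE bar of translation factor genes (25.0%) is taller than both grey bars, and their GAGA motif bar (12.5%) is shorter.

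Promoter sequence was compared in the same way from 250 bp before to 50 bp after the gene start, whether or not the gene was bound. The DRE was in 15 of the 54 promoters (27.8%), and in 9.36% of all protein-coding promoters. It was in 6 of the 14 bound and 9 of the 40 unbound translation factor promoters (42.9% and 22.5%). GAGAG was in 8 of 54 (14.8%), against 29.7% of all, with 14.3% of the bound and 15.0% of the unbound genes. A TCT-like start, CTTTC or CTTTT within 10 bp of the TSS on the strand of the gene, was present at 8 of 54 genes (14.8%, against 6.62% of all). Of these, eEF1alpha1 was bound, and eEF1delta, eIF3e, eIF3f1, eIF3g1, eIF3i, eIF4A and eIF4E1 were not.

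Other genes of the translation apparatus outside the symbol rule were counted by the same window. Of 59, 15 were bound (25.4%, against the 16.2% of all genes). The 33 aminoacyl-tRNA synthetase genes among them were taken by symbol, and 27.3% were bound. The other 26 were picked by hand, and 23.1% were bound, so these shares and those of their classes do not describe a systematic set. Genes for cap and poly(A) binding and their regulators were bound in 5 of 10 cases, with scores of 580.4 for larp, 208 for brat, 151 for pAbp, 108 for Pdcd4 and 99.1 for Thor, the eIF4E-binding protein. The brat product is known to recruit eIF4EHP to hunchback mRNA. Both genes were bound by the window rule, and a link between the 2 calls was not tested. The brat summit lay 736 bp upstream of its TSS, and that of eIF4EHP lay closer to CG18428. Of the cytosolic aminoacyl-tRNA synthetase genes 7 of 18 were bound, led by SerRS at 238 and IleRS at 190.0, and of the mitochondrial synthetases 2 of 15. The summits at SerRS, AspRS, MetRS and the mitochondrial LeuRS-m lay closer to the TSS of another gene. None of the 8 mitochondrial translation factor genes and none of the 3 genes for eIF2 phosphorylation was bound. The recycling factor gene pix, at 73.9, was the only 1 of 5 in the reinitiation and recycling class.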

How the data were processed

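Peak lists of Psq-GFP ChIP-seq on the dm6 assembly were analysed: a list passing the IDR threshold, a relaxed list of the pooled replicates, and a relaxed list for each of replicates 3 and 4. The deposited lists, per the labels and the README text, were made as input to and output from IDR; caller, settings, IDR threshold and read depths were not given in the sources used here. Each deposited score is the caller's statistic, and the deposited −log10 q-value reached at most 3.87 in the IDR list, where it ranks few peaks apart. The control experiment and the dm3 lists were not used. Summits were placed on Ensembl release 115 TSSs with Python 3.11.15 and pandas 2.3.3; peaks were matched between lists by an overlap of at least 1 bp. The placement step was tested on simulated summits. Translation factor genes were all named, with scores for every bound gene; paralogue sets are symbols that differ in a final digit. The genes and lists were chosen with earlier results of these data known. No test was run, because peak lists of 1 group allow no contrast. Alternatives were other windows, stricter lists, single replicates, 1 TSS per gene, gene bodies and the nearest gene. The replicates are labelled biological, and counting intervals do not apply to scores.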

Additional observations from a re-analysis of the deposited data

How the results depend on the processing

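The count of 14 bound translation factor genes was 13 with a 500 bp window (without eIF2Bbeta) and 17 with 2000 bp (with eIF3d1, eIF3g1 and eIF3l). It was 10 among the highest-scoring 1499 IDR peaks, 14 with 1 TSS per gene or with gene bodies included, and 10 by nearest TSS. With a single replicate it ran from 12 (without replicate 3, losing eIF3a and eRF1) to 15 (without replicate 4, gaining eIF4A). The share of all genes bound was 14.1% at 500 bp, 19.97% at 2000 bp and 9.05% among the highest-scoring peaks. It was 14.7% with 1 TSS per gene, 18.4% with gene bodies included and 11.5% by nearest TSS. Without replicate 3 it was 16.0%, and without replicate 4 it was 15.8%. The median best score was 249 among the highest-scoring IDR peaks, a set that leaves out lower scores by construction. GAGAG was found at 1 of the 16 summits within 50 bp and at 3 within 250 bp. No paired analysis was possible because there is 1 group and no test.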
